A study of Caenorhabditis elegans with 3 samples.

Results

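The core of the insulin receptor to DAF-16 pathway was followed in whole Caenorhabditis elegans on 3 Affymetrix expression arrays. Its members are 10 genes of 17118 measured, of which 9 are described singly: daf-2, ist-1, age-1, aap-1, pdk-1, akt-1, akt-2, sgk-1 and daf-16. Counts and medians cover all 10. They were chosen by name, and each was read from every probe set that the platform annotation assigns to that gene alone, 25 probe sets in all. The worms were wild-type hermaphrodites, young adults of 3 days from an age-synchronised culture, and were kept for 24 h at 20 °C in a salt medium. All 3 sets, the control included, were without food for that time, so no fed worms enter any comparison. One set was exposed to GO, one to rGO, and one was the control. The labels do not spell out these abbreviations; the study is known to have dealt with graphene oxide (GO) and its reduced form (rGO). The concentrations are not given in the sources used here. Each set has 1 array, so no spread between cultures exists, no test could be made, and "higher" or "lower" describes these arrays alone.

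In C. elegans, insulin-like peptides bind the receptor tyrosine kinase DAF-2, which signals through the phosphoinositide 3-kinase AGE-1. The lipid that AGE-1 makes recruits PDK-1, AKT-1 and AKT-2, and the AKT kinases phosphorylate the FOXO transcription factor DAF-16 and hold it in the cytoplasm. When the receptor is less active, as in fasting or in daf-2 mutants, DAF-16 enters the nucleus and raises genes of stress resistance and longevity. Much of this control acts on the proteins, which transcript levels do not show.

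Each deposited value is the log2 expression of a probe set, so that a difference of 1 is 2-fold. The median of all probe sets that are not the maker's controls was 6.92 on the GO array, 6.86 on the rGO array and 6.87 on the control array. The 24 probe sets for spiked-in poly-A transcripts were all below their control value, by a median of -1.55 with GO and -0.98 with rGO. The 18 hybridisation control probe sets were also all below their value on the control array. Their median was -0.62 with GO and -0.93 with rGO. The part of these array differences in the results was not tested. Among 6 markers of the adult hermaphrodite, the yolk protein genes vit-2, vit-4, vit-5 and vit-6 were above control by 0.06 to 0.35 with GO and by 0.01 to 0.57 with rGO. The other 2 were far below it: the yolk protein gene vit-1 by -3.06 with GO and -3.40 with rGO, and the adult collagen gene col-19 by -4.20 with GO and -0.91 with rGO. Sperm markers were lower: the log2 of their summed level over 9 genes was 10.38 on the GO array, 13.33 on the rGO array and 14.86 on the control array. In whole worms, fewer cells of a type and less RNA per cell cannot be told apart. Probe sets below 6.24, the highest of 8 control probe sets with no expected target, were taken as not above background.

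Transcripts of the core pathway were within 2-fold of control on both exposed arrays, with ist-1 as the exception. On the GO array 8 of the 10 genes were above their control value and 2 were below it (daf-2 and daf-16). Over all genes, 47.3% were above control with GO, 33.4% were below and 19.3% were exactly equal. On the rGO array 9 of the 10 were above and 1, daf-16, was below. Both counts take daf-2 at its mean, which was below background on all 3 arrays. With rGO that mean was above control, but the only daf-2 probe set to reach background was below it (-0.17). Over all genes, 44.4% were above control with rGO, 37.6% were below and 17.9% were equal. Exact ties come from the summary of probes over so few arrays and are commoner among dim genes. Among genes above the floor on dim genes, which asks that the brighter of the compared arrays reach 6.79, the median of all gene values, 52.6% were above and 38.8% below control with GO, and 52.4% above and 40.2% below with rGO. Of the 10 genes, 8 passed this floor in each comparison, and daf-2 and pdk-1 did not. The median difference of the 8 was 0.25 for GO and 0.43 for rGO, beside 0.03 for GO and 0.03 for rGO over all genes above the floor.

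By the size rule of at least 2-fold, 1 of 8 genes was higher on the GO array and none was lower. Over all 9303 genes that passed the floor, 8.43% were higher by this rule with GO and 9.76% lower. On the rGO array 1 of 8 was again higher and none lower, beside 7.99% and 9.88% of 9097 genes. These shares do not set the core pathway apart from the array as a whole.

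**Figure D1:**
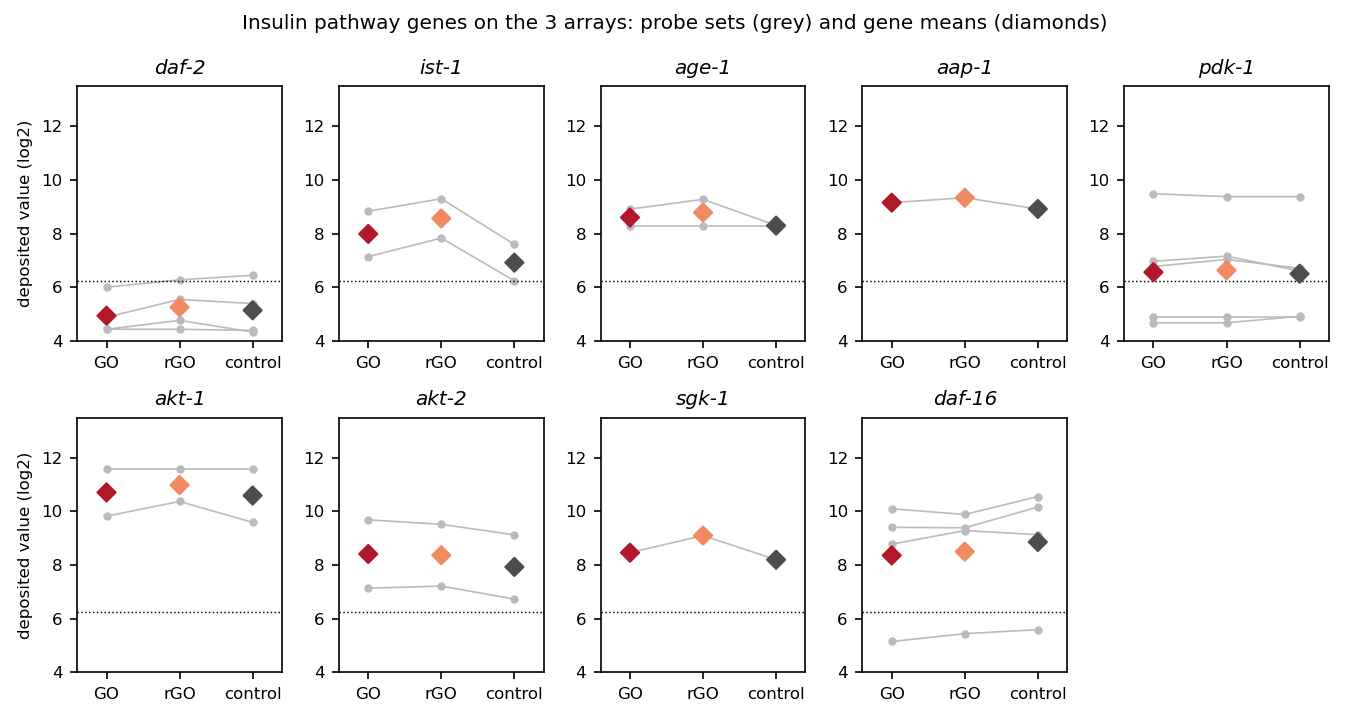
Deposited log2 values of 9 core pathway genes on the GO, rGO and control arrays. Grey lines join the values of 1 probe set, diamonds are the gene means, and the dotted line is the background of 6.24; ist-1 shows the widest gap between the exposed arrays and control, and the daf-2 means lie below background on all 3 arrays.

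The receptor gene daf-2 was barely detected. Its mean value was 4.94 on the GO array, 5.26 on the rGO array and 5.14 on the control array, all below background. Only 1 of its 4 probe sets, 172033_x_at, reached background on any array, with 6.002 on the GO array, 6.28 on the rGO array and 6.45 on the control array. The other 3 were between 4.33 and 5.54 on all arrays. Beyond the counts of gene means, no direction was taken for daf-2. At levels that are not above background, its mean differed from control by -0.20 on the GO array and by 0.11 on the rGO array.

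The gene of the insulin receptor substrate homologue, ist-1, which couples receptors of this class to downstream kinases, showed the widest differences from control of the 10. Its mean value was 7.99 on the GO array, 8.57 on the rGO array and 6.92 on the control array. That is 2.098-fold higher with GO (+1.07) and 3.13-fold higher with rGO (+1.65). Both of its probe sets gave this order. Probe set 174720_at had 8.83 on the GO array, 9.30 on the rGO array and 7.60 on the control array. Probe set 182353_at had 7.14 on the GO array, 7.83 on the rGO array and 6.24 on the control array, the last being just under background, so its differences are at least 1.86-fold for GO and at least 3.02-fold for rGO. The SD between the 2 probe sets was 0.24 for the GO difference and 0.08 for the rGO difference. Of all genes above the floor, 7.50% had a larger positive difference than ist-1 with GO and 2.36% with rGO. Neither probe set is named by the maker as sharing probes between transcripts.

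The 3-array pattern of ist-1 was compared with that of 8604 other genes whose mean reached 6.79, by the distance between values centred on their own mean. The nearest were nmt-1 (distance 0.05), with 10.08 on the GO array, 10.71 on the rGO array and 9.06 on the control array, W09C5.1 (0.06) and fbf-1 (0.06). In all, 13 genes lay within 0.1. With 3 arrays as the only points, such likeness is a description only.

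The gene means of the 2 subunits of the phosphoinositide 3-kinase were modestly above control. All probe sets of both genes have names that mark probes shared between transcripts. The catalytic subunit gene age-1 had 8.60 on the GO array, 8.78 on the rGO array and 8.30 on the control array. Its 2 probe sets disagreed: 171838_x_at was 8.29 on all 3 arrays, whereas 193074_s_at had 8.91 on the GO array, 9.28 on the rGO array and 8.30 on the control array. The gene difference of 0.30 for GO and 0.49 for rGO is therefore the mean of a tied probe set and 1 that gave 0.61 and 0.97. It did not exceed the SD between the probe sets, 0.43 for GO and 0.69 for rGO. Which of the 2 reads age-1 better was not tested. The adaptor subunit gene aap-1, read by 1 probe set, had 9.15 on the GO array, 9.33 on the rGO array and 8.92 on the control array, which is 0.24 and 0.42 above control.

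The kinases below AGE-1 differed from each other in how far they stood from control. The pdk-1 mean, for the kinase that activates AKT, was 6.56 on the GO array, 6.63 on the rGO array and 6.50 on the control array, and 2 of its 5 probe sets were below background on all arrays. Its brightest probe set, 175826_s_at, had 9.49 on the GO array, 9.38 on the rGO array and 9.38 on the control array. For pdk-1 no difference beyond the scatter of its probe sets was seen (0.06 and 0.13, with SDs of 0.22 and 0.31).

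The akt-1 gene had 10.71 on the GO array, 10.98 on the rGO array and 10.59 on the control array. One of its probe sets, 175808_s_at, was tied at 11.59 on all 3 arrays, and the other, 194058_s_at, had 9.82 on the GO array, 10.37 on the rGO array and 9.59 on the control array. Its paralogue akt-2 had 8.41 on the GO array, 8.37 on the rGO array and 7.93 on the control array. The akt-2 differences were alike in both probe sets, at 0.56 and 0.41 for GO and at 0.39 and 0.48 for rGO. The gene differences of akt-2, 0.48 for GO and 0.44 for rGO, exceeded the SD between its probe sets, 0.11 and 0.07.

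The gene of the serum- and glucocorticoid-inducible kinase sgk-1, which acts beside AKT in this pathway and below TOR complex 2, had 8.46 on the GO array, 9.10 on the rGO array and 8.20 on the control array. Its rGO value was 1.87-fold above control (+0.90), with 9.85% of all genes above the floor showing a larger positive difference, and its GO value was above control by 0.26. A single probe set, 192233_at, reads sgk-1, so no spread between probe sets exists for it.

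The mean of the FOXO gene daf-16 stood below control on both exposed arrays, whereas the means of age-1, pdk-1, akt-1, akt-2 and sgk-1 stood above it. Among those kinase genes only akt-2 differed by more than the SD between its probe sets, and sgk-1 has a single probe set. The daf-16 mean was 8.36 on the GO array, 8.50 on the rGO array and 8.86 on the control array. That is 1.42-fold lower with GO (-0.50) and 1.28-fold lower with rGO (-0.36). With GO all 4 probe sets were lower, by -0.35 to -0.76. With rGO 3 were lower and 188176_s_at was higher, with 9.29 on the rGO array and 9.13 on the control array.

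The daf-16 probe set whose name marks no shared probes, 175678_at, had 9.41 on the GO array, 9.39 on the rGO array and 10.16 on the control array. Probe set 175823_s_at had 10.10 on the GO array, 9.89 on the rGO array and 10.55 on the control array, the same direction. Probe set 181992_s_at, at 5.15 on the GO array, 5.44 on the rGO array and 5.59 on the control array, was below background throughout and carries no weight on direction. The gene difference exceeded the SD between probe sets with GO (0.18) but not with rGO (0.44). Of all genes above the floor, 16.52% were lower than daf-16 with GO and 21.7% with rGO. daf-16 yields several transcripts, and which of them each probe set reads is unknown here.

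**Figure D2:**
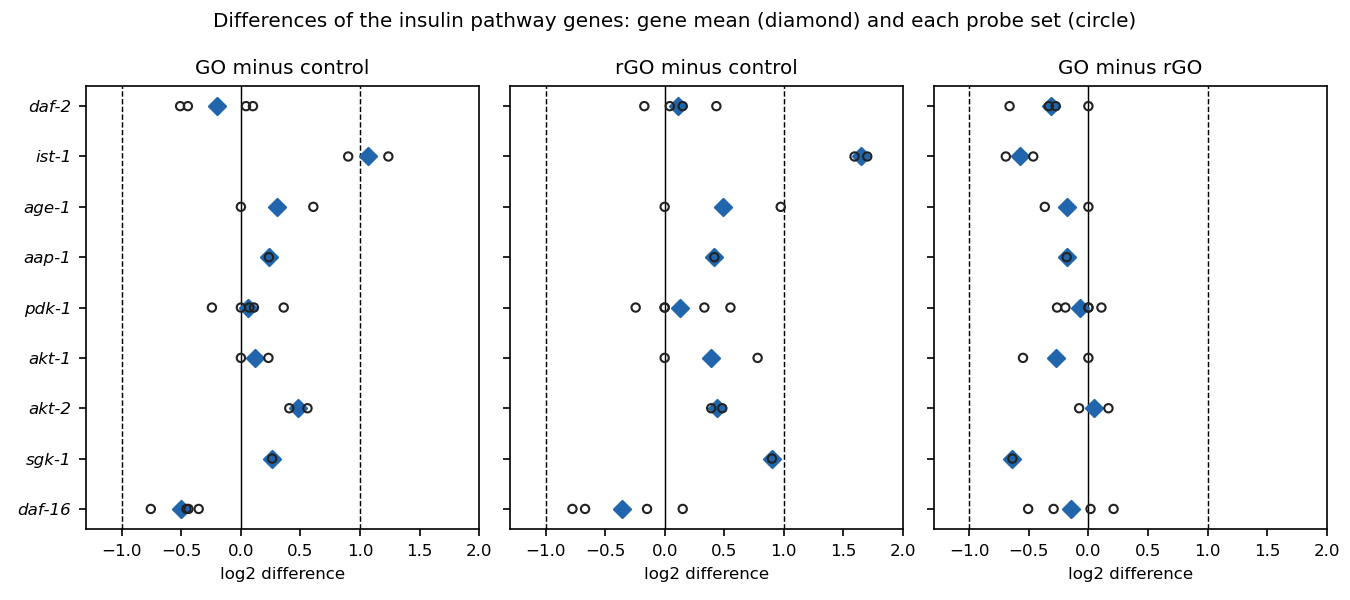
Log2 differences of 9 core pathway genes for GO minus control, rGO minus control and GO minus rGO. Diamonds are gene means, circles are probe sets, and dashed lines mark 2-fold; the ist-1 diamonds pass 2-fold against control, and the daf-16 diamond lies left of 0 in all 3 panels.

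For the 8 genes read by several probe sets, the difference from control exceeded the SD between the gene's own probe sets in 3 with GO (ist-1, akt-2 and daf-16) and in 2 with rGO (ist-1 and akt-2). This SD describes probe sets and not worms. The 2 comparisons share the control array, so the GO and rGO differences are not independent of each other.

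The exposed arrays were also set against each other. Of the 10 genes, 8 were lower with GO than with rGO and 2 were higher (akt-2 among them), while over all genes 37.1% were lower and 39.5% higher, and among genes above the floor 48.1% were lower and 41.5% higher. None of the 8 genes above the floor differed 2-fold, beside 5.59% higher and 3.73% lower of 8978 genes. The widest differences were sgk-1, at 8.46 with GO and 9.10 with rGO (-0.64, 1.56-fold lower with GO), and ist-1, at 7.99 with GO and 8.57 with rGO (-0.58, 1.49-fold lower). The ist-1 difference exceeded the SD between its probe sets (0.16), as did that of daf-2 (-0.32 against 0.27), which is below background. For age-1, aap-1, akt-1, pdk-1 and daf-16 the GO array was lower by 0.07 to 0.27. This direction did not hold for the brightest probe set of daf-16 (+0.21) or of pdk-1 (+0.11), and the brightest of akt-1 was tied. With daf-16, 175678_at was also nearly level (+0.02). The median over the 8 genes was -0.18, beside 0.00 over all genes above the floor.

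The order of the arrays was rGO above GO above control for 6 of the 10 genes: ist-1, age-1, aap-1, pdk-1, akt-1 and sgk-1. This order was found in 16.9% of all genes and in 24.6% of genes that reached the floor on at least 1 array. The exposed arrays were nearly equal for akt-2. The rGO array was on top for daf-2, at levels below background, and daf-16 alone had the control array on top.

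**Figure D3:**
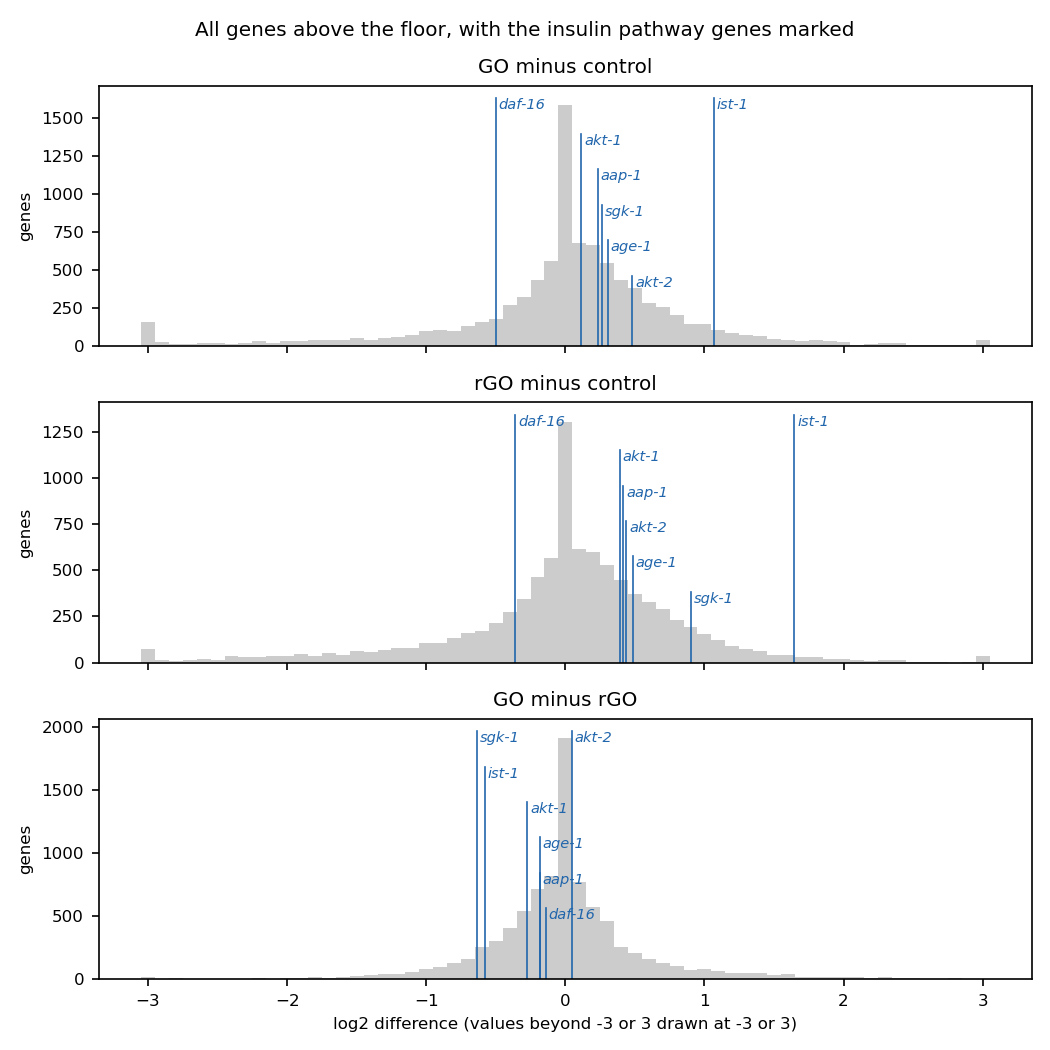
Histograms of the log2 differences of all genes above the floor (vertical axis, number of genes), with lines at 7 core pathway genes that passed it. Most of these genes lie in the body of the distribution, ist-1 lies in its upper part against control, and sgk-1 does so with rGO.

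Upstream of the receptor, the insulin-like peptides act as its agonists or antagonists, and their genes differed from control in both directions. Of 24 such genes measured, 16 passed the floor with GO, 4 of them at least 2-fold higher, beside 8.43% of all genes, and 2 lower, beside 9.76% (median 0.53). With rGO 15 passed, of which 4 were higher, beside 7.99%, and 1 lower, beside 9.88% (median 0.33). Without the floor the medians over all 24 were 0.00 for GO, with 10 above and 10 below control, and 0.18 for rGO, with 14 above and 7 below. Of the 24, 5 were below background on all arrays. The gene ins-22 had 8.69 on the GO array, 9.01 on the rGO array and 7.01 on the control array, and ins-23 had 8.60 on the GO array, 8.90 on the rGO array and 6.99 on the control array, so both exposed arrays stood above control. The gene ins-37 went the other way, with 5.67 on the GO array, 5.86 on the rGO array and 8.08 on the control array, at least 3.58-fold lower with each exposure.

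Some ligand genes separated the exposed arrays. The gene ins-34 had 9.55 on the GO array, 7.87 on the rGO array and 7.75 on the control array, and ins-26 had 6.28 on the GO array, 7.74 on the rGO array and 8.13 on the control array. The gene ins-35 was 2.93-fold above control with rGO, at 6.83 on the GO array, 7.93 on the rGO array and 6.38 on the control array. GO minus rGO was at least 2-fold higher for 2 of 15 ligand genes (ins-34 and ins-2) and lower for 2 (ins-26 and ins-35), beside 5.59% and 3.73% of all genes, with a median of 0.00. The agonist gene daf-28 did not pass the floor. It was named after its values were seen, at 4.97 on the GO array, 5.29 on the rGO array and 6.77 on the control array, so only the control array was above background.

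Genes that act on the core pathway or on DAF-16 were mostly above control by small amounts. Of 24 measured, 20 were above control with GO and 20 with rGO, without a floor, beside 47.3% and 44.4% of all genes. Of the 24, 8 were below background on all arrays. Among the 16 above the floor, with GO 1 passed 2-fold upward, beside 8.43% of all genes (median 0.33), with rGO 4 did, beside 7.99% (median 0.30), and no gene passed it downward. With GO the gene was jnk-1, whose JNK kinase phosphorylates DAF-16, with 8.82 on the GO array, 7.84 on the rGO array and 6.96 on the control array. With rGO they were math-33, a ubiquitin hydrolase that stabilises DAF-16 (+1.21), pptr-1, a phosphatase 2A regulatory subunit that counteracts AKT-1 (+1.18), prmt-1, an arginine methyltransferase that acts on DAF-16 (+1.15), and asna-1, an ATPase that promotes insulin secretion (+1.03). For these 4 genes the GO differences were 0.66, 0.31, 0.32 and 0.65. The value of prmt-1 was 11.94 on the GO array, 12.77 on the rGO array and 11.62 on the control array. None of the 16 differed 2-fold between GO and rGO, with jnk-1 widest (+0.97) and a median of -0.05. The 14-3-3 genes ftt-2 and par-5, whose proteins hold phosphorylated DAF-16 in the cytoplasm, differed from control by 0.40 and 0.10 with GO and by 0.06 and 0.14 with rGO; they were named after their values were seen.

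The TOR and energy-sensing genes, which receive and modify insulin signals, differed little. Of 15 measured, 13 were above control with GO and 13 with rGO, beside 47.3% and 44.4% of all genes, and 2 of the 15 were below background on all arrays. All 12 above the floor were under 2-fold in each comparison. Over all genes 8.43% were higher and 9.76% lower by that rule with GO, and 7.99% and 9.88% with rGO. The medians were 0.25 for GO, 0.46 for rGO and -0.20 for GO minus rGO. The widest was aakb-1, a beta subunit of AMP-activated kinase, with 8.66 on the GO array, 8.93 on the rGO array and 8.06 on the control array. Next with GO were rict-1, the Rictor subunit of TOR complex 2 through which SGK-1 is activated (+0.58), and raga-1, a Rag GTPase (+0.46). The 2 rict-1 probe sets gave +0.91 and +0.24 with GO, the latter with a control value of 6.17, below background. Next with rGO were strd-1, a STRAD homologue (+0.80) and raga-1 (+0.76).

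Genes known to be raised by DAF-16 showed single wide differences in both directions. Of 26 measured, 21 passed the floor against control. With GO 6 of them (28.6%) were higher by 2-fold or more, beside 8.43% of all genes, and 2 (9.5%) were lower, beside 9.76%. With rGO 8 (38.1%) were higher, beside 7.99% of all genes, and 1 (4.8%) was lower, beside 9.88%. The medians were 0.29 for GO and 0.35 for rGO. The small heat shock gene hsp-12.6 had 10.31 on the GO array, 10.31 on the rGO array and 6.68 on the control array. The metallothionein gene mtl-1 had 10.97 on the GO array, 11.05 on the rGO array and 7.86 on the control array. The exposed arrays were nearly equal for these 2 genes and far above control.

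The linker histone gene hil-1 and the transhydrogenase gene nnt-1 were higher still with rGO than with GO. Their rGO differences from control were 2.58 and 2.04, and their GO differences were 1.34 and 1.03. The ferritin gene ftn-1 was above control by 1.61 with GO and 1.47 with rGO, and the cystatin gene cpi-1 by 1.29 and 1.45. With rGO hsp-12.3 (+1.01) and dod-6 (+1.09) also passed 2-fold. Against this direction, the lysozyme gene lys-7 had 7.92 on the GO array, 9.62 on the rGO array and 9.97 on the control array. The desaturase gene fat-5 had 6.21 on the GO array, 6.39 on the rGO array and 8.06 on the control array, at least 3.53-fold lower with GO and 3.19-fold lower with rGO.

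Between the exposed arrays, 3 of 20 genes of this list were at least 2-fold lower with GO (lys-7, hil-1 and nnt-1), no gene was higher by that much, beside 3.73% lower and 5.59% higher of all genes, and the median was -0.17. The superoxide dismutase gene sod-3, the classic reporter of DAF-16 activity, did not pass the floor. It had 5.27 on the GO array, 5.63 on the rGO array and 6.63 on the control array, with only the control array above background, and was named after its values were seen. Several genes of this list also respond to metals, heat or fasting.

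Genes known to be lower in daf-2 mutants were split. The floor was passed by 9 of them. By 2-fold or more, 4 were lower with GO and 4 with rGO, beside 9.76% and 9.88% of all genes. With GO 1 was higher, beside 8.43%. The lower ones in each comparison were dod-19, dod-17, dod-24 and the intestinal peptide transporter gene pept-1. The value of dod-19 was 8.03 on the GO array, 7.60 on the rGO array and 9.77 on the control array. The value of dod-24 was 10.22 on the GO array, 10.21 on the rGO array and 11.66 on the control array. The gene dod-22 went the other way, with 8.07 on the GO array, 7.26 on the rGO array and 6.42 on the control array. The list medians were 0.06 for GO, 0.01 for rGO and 0.16 for GO minus rGO.

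Transcription factors that act in parallel to DAF-16, with their regulators, were under 2-fold in all comparisons (10 genes, medians of -0.17 for GO, -0.09 for rGO and 0.05 for GO minus rGO). The Nrf factor gene skn-1, whose protein AKT and SGK-1 also phosphorylate, had 8.38 on the GO array, 8.78 on the rGO array and 9.18 on the control array, so that its mean stood below control on both exposed arrays. All 3 of its probe sets were below control with GO (-0.67 to -0.90). With rGO 2 were below control (-0.86 and -0.998) and 1 was above it (+0.68), the last being under background on the GO and control arrays. The FoxA gene pha-4 was above control, with 7.54 on the GO array, 7.30 on the rGO array and 6.78 on the control array.

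**Figure D4:**
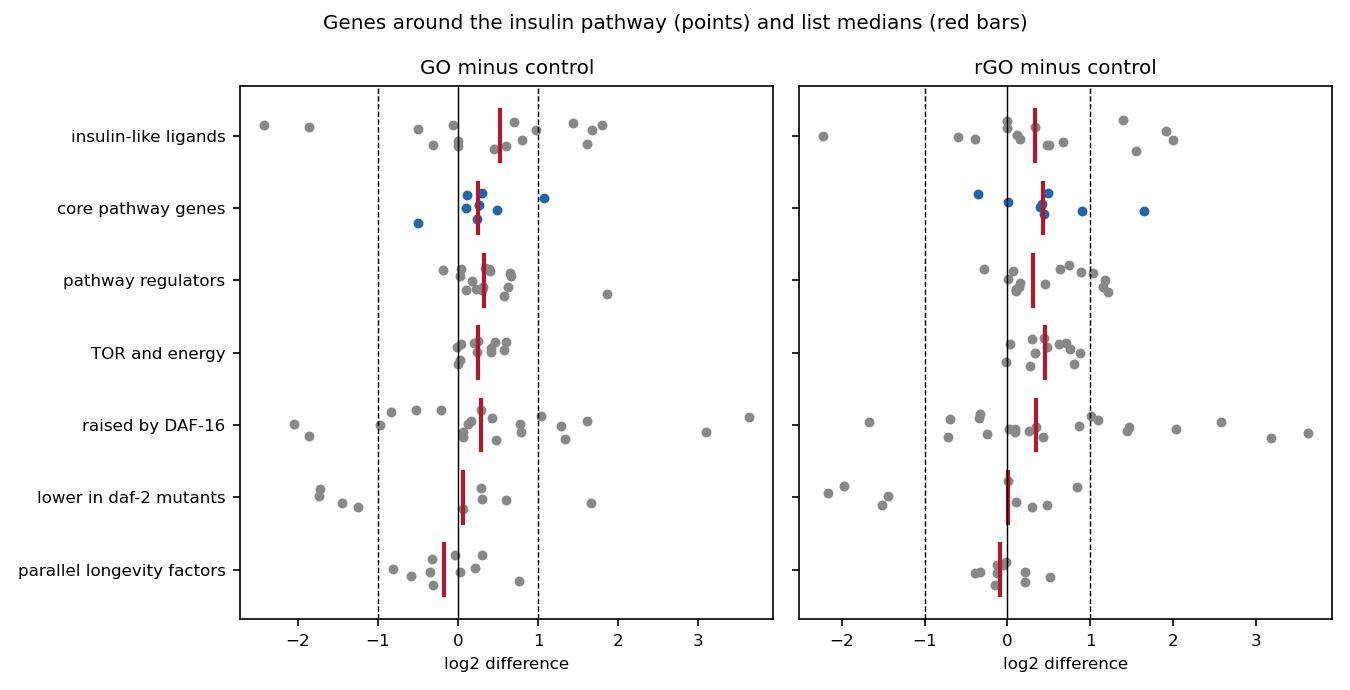
Log2 differences from control of genes above the floor in the core pathway (blue) and in the lists around it (grey), with GO in the left panel and rGO in the right, and red bars at list medians. Dashed lines mark 2-fold. Apart from ist-1, which passes it upward in both panels, the core pathway, TOR and parallel factor genes lie within 2-fold. Ligands and DAF-16 outputs spread past it on both sides.

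Markers of other tissues differed between the arrays as well. Of 10 neuron markers, 8 were above control with GO and 10 with rGO, beside 47.3% and 44.4% of all genes. The log2 of the summed level of these markers was 12.78 on the GO array, 13.06 on the rGO array and 12.04 on the control array. Of these, unc-31 was below background on all arrays, and it and unc-64 are also in the list of genes that act on the pathway. For 9 intestine markers the summed level, to which asp-1 and cpr-6 add most, was 14.55 on the GO array, 14.80 on the rGO array and 14.68 on the control array. Of these, 3 were at least 2-fold lower with GO (act-5 -1.66, ges-1 -1.26 and vha-6 -1.25) and 1 with rGO (act-5 -2.14). Over all genes above the floor, 9.76% were lower by that rule with GO and 9.88% with rGO. For 10 epidermis markers the sum was 13.89 on the GO array, 13.86 on the rGO array and 14.83 on the control array. Members of that list differed both ways. With GO 3 were at least 2-fold higher (noah-1 +3.37, wrt-2 +1.96 and dpy-7 +1.46), beside 8.43% of all genes. Another 4 were lower with GO (dpy-5 -4.44, col-19 -4.20, bli-1 -1.77 and rol-6 -1.59), beside 9.76%. With rGO 1 was higher (noah-1 +1.08) and 3 lower (dpy-5 -2.86, bli-1 -1.80 and rol-6 -1.58), beside 7.99% and 9.88%. The bli-1 value was below background on both exposed arrays. For 10 oocyte and germ line markers the summed level was 15.41, 15.48 and 14.998, and for 10 body wall muscle markers 13.57, 14.13 and 14.15, on the GO, rGO and control arrays. For the 6 adult hermaphrodite markers it was 15.91 on the GO array, 15.95 on the rGO array and 16.111 on the control array. Their part in the differences of the pathway genes was not tested.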

How the data were processed

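Per the submitters' processing notes, the deposited log2 values were made with GCOS, Affymetrix Expression Console and RMA, versions not given. RMA equalises array distributions and summarises probes by median polish, so a general change in RNA per worm cannot be seen and exact ties arise (3 of the 25 core probe sets, and 13.4% of single-gene probe sets, were equal on all 3 arrays). Of 22625 probe sets, the 20766 with 1 gene in the 2016 platform annotation were used, 20701 of them given current symbols through a RefSeq table (WBcel235), and averaged into 17118 genes. Of the 25, 17 have names that mark probes shared between transcripts.

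Differences have no test, and the number of arrays limits the precision. Floor, background and the 2-fold limit are rules of size. A fold is "at least", against 6.24, where the dimmer array lay below it. Named genes are the 10 core genes, up to 4 genes per list and comparison with the widest difference, and the 3 nearest in pattern to a core gene past 2-fold; others complete a count or are marked. The core genes, 6 surrounding lists and 7 marker lists were chosen with earlier results of these data known. One core gene enters the counts and is not reported here singly. Alternatives were the brightest probe set, no shared-probe sets, quantile normalisation, median centring, other floors and a 1.5-fold limit. The counting step was tested on simulated data without ties, with planted differences well past the 2-fold limit. That test checks the counting and not genes near the limit. Python 3.11.15, numpy 2.4.6 and pandas 2.3.3 were used.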

Additional observations from a re-analysis of the deposited data

How the results depend on the processing

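No paired analysis was possible because each group has 1 array. Of 150 recomputed differences of single core genes, 135 moved by less than the spread of probe sets, taken as the median over genes of the SD among a gene's probe sets (0.20 with GO against control, 0.33 with rGO against control, 0.26 with GO against rGO), and 15 moved by more; of 510 recomputed counts and medians of lists, 476 stayed within that spread or within 1.5 times the count, and 34 did not. Over 6 alternatives the ist-1 difference ranged over 1.02 to 1.24 for GO and 1.61 to 1.70 for rGO, and that of daf-16 over -0.76 to -0.46 and -0.77 to -0.36. Where a difference or count moved, the cause was not tested unless it is named.

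With the brightest probe set per gene, GO minus control was 0.61 for age-1 and -0.44 for daf-2, rGO minus control was 0.97 for age-1 and 0.00 for akt-1 (a tied probe set), and GO minus rGO was 0.00 for akt-1 and 0.21 for daf-16; the TOR and energy median was 0.032 for rGO, and 1 parallel factor with GO and 1 regulator for GO minus rGO were at least 2-fold higher. Without shared-probe sets, daf-2, age-1, aap-1 and akt-1 have no value, daf-16 was -0.76 for GO and -0.77 for rGO, and pdk-1, left with a probe set below background, was -0.24 for each. The medians for GO were then 0.032 for TOR and energy, 0.29 for genes lower in daf-2 mutants and 0.12 for parallel factors; 2 regulators were higher with rGO and 1 for GO minus rGO, and 1 gene raised by DAF-16 was lower with GO. With the floor at the 75th percentile (8.92), which tests fewer genes and drops ist-1, 0 core genes were 2-fold higher with GO and 0 with rGO. Only 1 ligand gene (ins-34) then passed the floor for GO and 2 for rGO, so the ligand medians rest on very few genes. They were 1.79 for GO, 1.70 for rGO and -0.32 for GO minus rGO, with 1, 2 and 1 higher and 0, 0 and 0 lower. The genes lower in daf-2 mutants then had medians of -0.59 for GO and -0.72 for rGO, with 0 higher for GO. At this floor 0 regulators were higher with GO, and 1 and 0 genes raised by DAF-16 were lower with GO and rGO. With no floor, the ligand median was 0.00 for GO, 2 ligands were lower with rGO (2 also after quantile normalisation and after median centring), and 2 genes raised by DAF-16 were lower with rGO. At a 1.5-fold limit, 2 core genes were higher with rGO (ist-1 and sgk-1) and 1 was lower for GO minus rGO (sgk-1). Another 2 settings were chosen after seeing the data. Without probe sets tied on all arrays, age-1 was 0.61 for GO and 0.97 for rGO, akt-1 was 0.78 for rGO and -0.55 for GO minus rGO, and the ligand median was -0.30 for GO minus rGO. With probe sets above background only, the other of these settings, daf-2 was -0.44 for GO.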
